A study of Saccharomyces cerevisiae with 21 samples.

Results

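The genes of lysine biosynthesis in Saccharomyces cerevisiae were followed through a wine fermentation. The set held 9 named genes, LYS1, LYS2, LYS4, LYS5, LYS9, LYS12, LYS14, LYS20 and LYS21, of 5656 genes with a measurement. All 9 were chosen by name, and each had 1 probe set (a group of oligonucleotides that reads the same transcript) annotated to it alone. RNA was hybridised to 21 one-colour Affymetrix yeast arrays, taken at 7 times with biological triplicates. The series design ties 24 h roughly to 0.5% ethanol, 48 h to 2%, 60 h to 3.5%, 120 h to 7% and 340 h to 10%, and 1 h and 12 h carry no ethanol value there. The groups differ by time of harvest, so ethanol and age of the culture cannot be told apart. The strain and the medium are not given in the sources used here.

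Yeast makes lysine by the aminoadipate pathway, which fungi use and which differs from the diaminopimelate pathway of plants and bacteria. Homocitrate synthase (Lys20 and Lys21) joins 2-oxoglutarate to acetyl-CoA, and homoaconitase (Lys4) and homoisocitrate dehydrogenase (Lys12) turn the product into 2-oxoadipate. After an amino group is added, 2-aminoadipate is reduced by Lys2, an enzyme that Lys5 activates by attaching a phosphopantetheine group. The saccharopine dehydrogenases Lys9 and Lys1 then complete the synthesis. Lys14 is the transcription factor of the pathway and responds to an intermediate, 2-aminoadipate semialdehyde, while lysine inhibits homocitrate synthase.

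Values are log2 probe set signals, on which a difference of 1 is a 2-fold change, and in the whole table they ran from 2.01 to 14.1. Each change is given as a log2 difference with its limma standard error after ±, and every group had n = 3 arrays. A gene is said to rise or fall only where its Benjamini-Hochberg adjusted p over all 5656 genes was under 0.05. Levels of different genes are not set against each other, because each probe set has its own response. The array of 24 h replicate 3 stood apart, with a mean correlation across genes of 0.960 with the other 24 h arrays and 18S ribosomal RNA controls at 9.33 against 6.36 and 6.49. High 18S signal within a group was not peculiar to that array. Replicate 3 of 120 h had 9.61, where replicates 1 and 2 had 7.16 and 6.80, although its mean correlation with its group was 0.978. Replicate 3 of 48 h had 8.30, where replicates 1 and 2 had 7.18 and 5.86. The same controls read 10.1 to 12.1 at 340 h and 5.86 to 9.69 on the arrays of the other times, and their part in the results was not tested. In bulk RNA, fewer transcripts per cell and fewer cells that express a gene cannot be told apart.

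**Figure D1:**
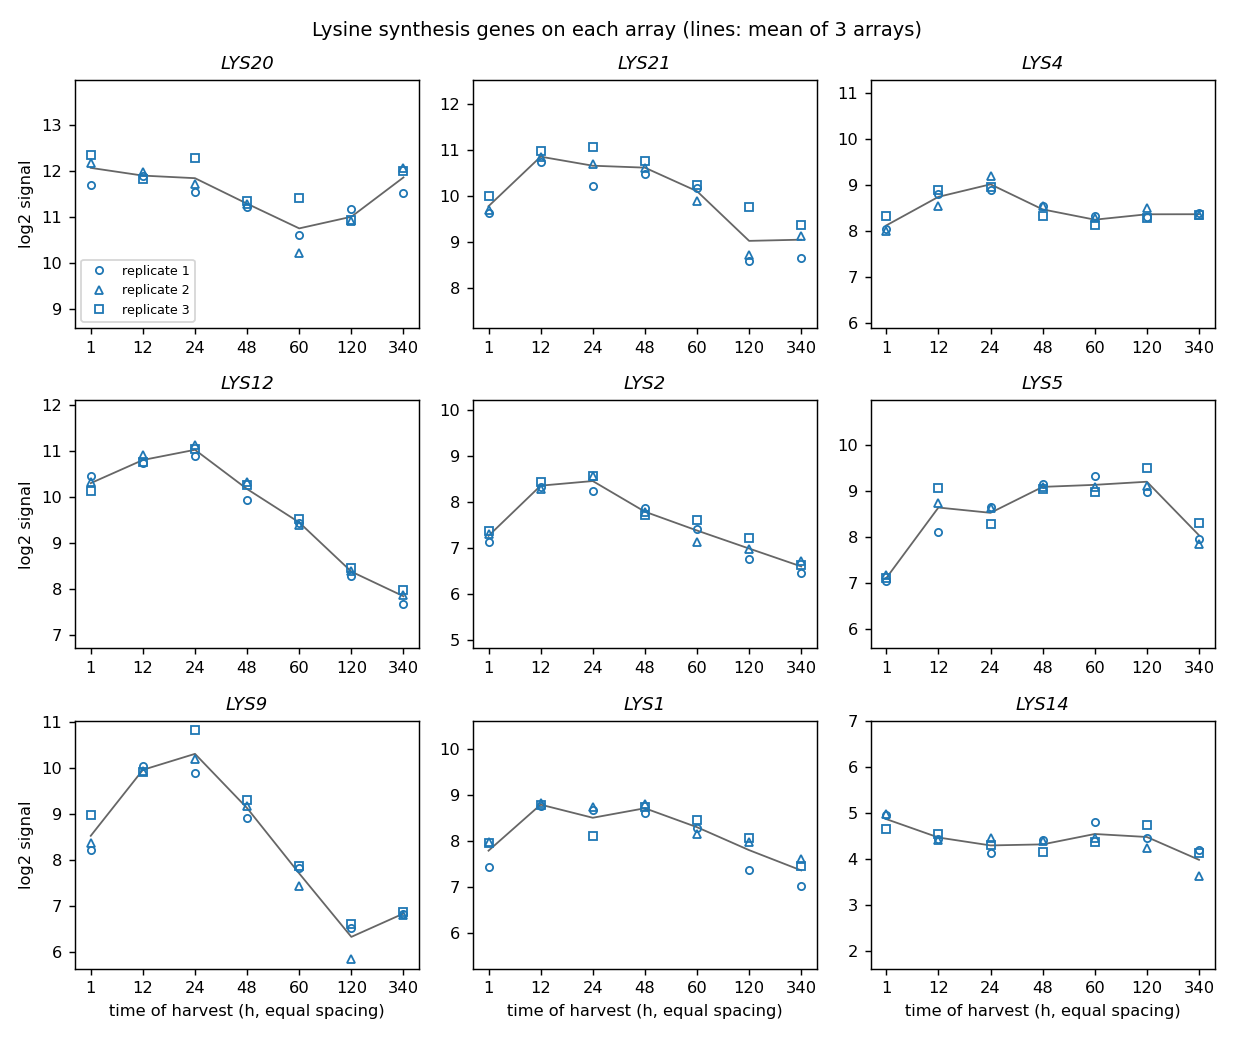
Log2 signal (vertical axes, each spanning the same number of units) of the 9 genes on every array against time of harvest in hours (equal spacing), with symbols for replicates and lines through the means of 3 arrays. LYS9 and LYS12 descend furthest after 24 h, LYS20 returns at 340 h, and LYS5 stays high until 120 h.

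From 1 h to 12 h, 7 of the 9 genes rose, where 26.0% of all genes did. By 120 h, 7 of the 9 had fallen from their 24 h level, where 26.6% of all genes had. LYS5 was only among the first 7 and LYS20 only among the second. Over the 7 times the moderated F test passed 9 of 9 genes, where it passed 89.2% of all genes, so passing it sets none of them apart. The spread of their 7 time means ran from 0.89 log2 units in LYS14 and in LYS4 to 3.98 in LYS9. LYS2, LYS4, LYS9 and LYS12 had their highest mean at 24 h, LYS1 and LYS21 at 12 h, LYS14 and LYS20 at 1 h, and LYS5 at 120 h. The lowest mean came at 340 h for LYS1, LYS2, LYS12 and LYS14, at 120 h for LYS9 and LYS21, at 60 h for LYS20, and at 1 h for LYS4 and LYS5.

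The comparison of 12 h with 1 h covers the start of the culture. Of the 9 genes, 7 rose, 0 fell and 2 did not pass, against 26.0% of all genes higher and 33.9% lower. Their median change was 1.00, where that of all genes was -0.11. LYS5 rose most (1.53 ± 0.20, limma adjusted p = 9.40e-07), from a mean of 7.11 ± 0.06 to 8.65 ± 0.48 (SD, n = 3), followed by LYS9 (1.43 ± 0.23), LYS2 (1.09 ± 0.16), LYS21 (1.08 ± 0.25) and LYS1 (1.00 ± 0.21). LYS4 (0.62 ± 0.15) and LYS12 (0.50 ± 0.15) rose less, and the change of LYS12 was 0.32 and did not pass (adjusted p = 0.102) when arrays were centred on 5 reference genes (ALG9, TAF10, TFC1, UBC6 and TRS65), a setting called "on the reference genes" from here on. The genes that did not pass were LYS20, at -0.17 ± 0.25, and LYS14, at -0.40 ± 0.18 (limma adjusted p = 0.0604). LYS14 passed downward when only the 6 arrays compared were fitted (limma adjusted p = 0.0481), when arrays were centred on the reference genes (limma adjusted p = 0.0123) and without 1 h replicate 3 (limma adjusted p = 0.0314).

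Between 12 h and 24 h no gene of the pathway passed in limma, where 2.07% of all genes did. Their changes lay between -0.29 and 0.35, and none of the 9 had an unadjusted p under 0.05. The number of genes of the set that passed after adjustment was also 0 with each of the alternatives run for this step.

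The first falls after the 24 h harvest were seen at 48 h. At 48 h against 24 h, 4 of the 9 genes fell and 1 rose, against 8.42% of all genes lower and 12.8% higher. LYS9 (-1.18 ± 0.23), LYS12 (-0.85 ± 0.15), LYS2 (-0.67 ± 0.17) and LYS4 (-0.55 ± 0.15) fell and LYS5 (0.56 ± 0.18) rose. LYS20 was lower on all 3 arrays but did not pass (-0.56 ± 0.26, limma adjusted p = 0.133). Centred on the reference genes, LYS2 (adjusted p = 0.081) and LYS4 (adjusted p = 0.0989) did not pass. LYS4 also failed without 48 h replicate 3 (adjusted p = 0.0592) and without 24 h replicate 2 (adjusted p = 0.0642). LYS5 failed without any of the 3 arrays of 48 h or without 24 h replicate 3 (adjusted p = 0.0609 to 0.101).

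At 60 h against 24 h, 5 of the 9 fell and 1 rose, against 20.8% of all genes lower and 22.6% higher. LYS20 (-1.09 ± 0.26) had joined LYS9, LYS12, LYS2 and LYS4. LYS5 (0.61 ± 0.18) was still higher, and failed without 60 h replicate 1 (adjusted p = 0.0563). LYS21 changed by -0.55 ± 0.28 and did not pass (limma adjusted p = 0.113), but passed without 24 h replicate 1 (adjusted p = 0.0394) and with the replicate number as a block in the model (adjusted p = 0.0299).

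By 120 h against 24 h, 7 of the 9 had fallen and 1 had risen, against 26.6% of all genes in each direction. The 7 are the enzymes that carry out the steps of the pathway, without LYS5 and LYS14. The 3 arrays of 120 h lay below the 3 of 24 h for these 7 of the 9, where 27.7% of all genes did so. The median change of the 9 was -0.84 (that of all genes was 0.01). That of the 7 alone was -1.47, and all of these had fallen. Centred on the reference genes, LYS1 (-0.28), LYS4 (-0.23) and LYS20 (-0.41) no longer passed and LYS14 passed upward (0.61, adjusted p = 0.0174).

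The comparison of 340 h with 24 h ended with 7 of the 9 genes lower and 0 higher, against 36.0% and 27.8% of all genes. The median change of the 9 was -1.15, and that of all genes -0.13. LYS20 and LYS14 did not pass. On the reference genes, which shifts every change here by 0.76, LYS2, LYS9, LYS12 and LYS21 still fell, LYS1, LYS4 and LYS5 did not pass, and LYS20 rose.

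Against 1 h, the 340 h arrays were lower for LYS12 (-2.46 ± 0.15), LYS9 (-1.69 ± 0.23), LYS14 (-0.89 ± 0.18), LYS21 (-0.73 ± 0.25) and LYS2 (-0.67 ± 0.16) and higher for LYS5 (0.93 ± 0.20), where 37.7% of all genes were lower and 31.9% higher. Of these, LYS2, LYS14 and LYS21 did not pass once arrays were centred on the reference genes (changes of -0.08, -0.30 and -0.14), and LYS21 also failed on array medians (adjusted p = 0.0738), without 340 h replicate 1 (adjusted p = 0.0932) and without 1 h replicate 3 (adjusted p = 0.0593).

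**Figure D2:**
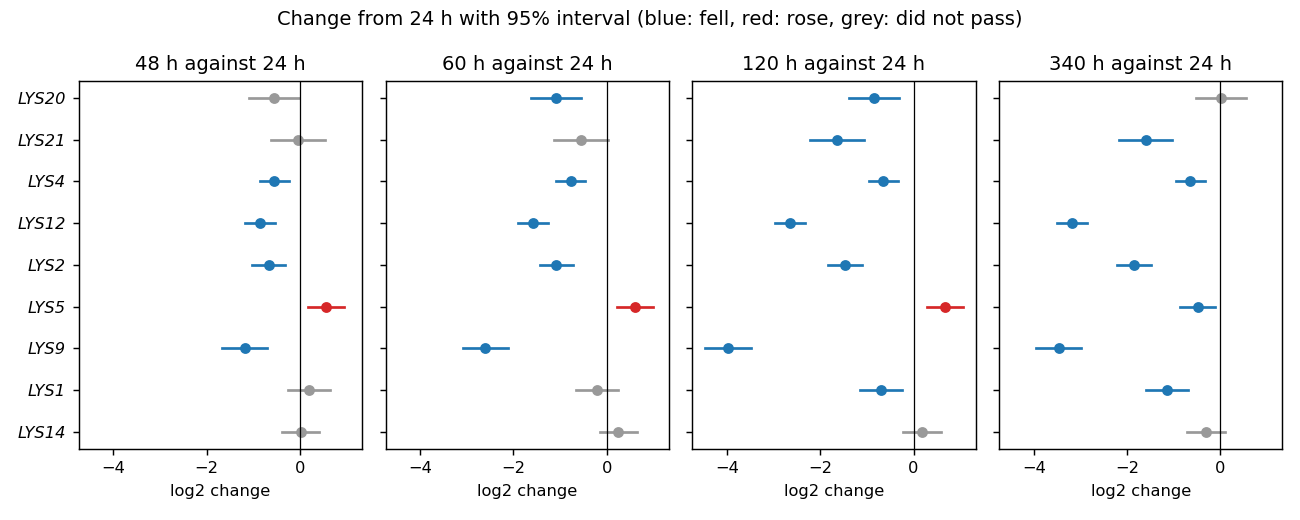
Log2 change from 24 h (horizontal axis) of each gene at 48, 60, 120 and 340 h, with its 95% interval from limma, where blue fell, red rose and grey did not pass. At 120 h the 7 enzymes of the pathway steps are blue, and LYS9 reaches -3.98. The 4 panels share the 24 h arrays, so they are not independent.

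LYS9 encodes the saccharopine dehydrogenase that forms saccharopine and moved furthest. Its arrays read 8.23, 8.39 and 8.98 at 1 h, 10.04, 9.95 and 9.91 at 12 h and 9.91, 10.21 and 10.83 at 24 h. They then read 8.92, 9.19 and 9.30 at 48 h, 7.83, 7.44 and 7.86 at 60 h, 6.53, 5.85 and 6.62 at 120 h and 6.83, 6.81 and 6.88 at 340 h. From 24 h to 120 h each time lay wholly below the one before. The total fall was 15.8-fold by 120 h, with a 95% interval of the log2 change from -4.47 to -3.49 (limma adjusted p = 7.38e-10). The steps were alike in size, -1.18 ± 0.23 to 48 h, -1.42 ± 0.23 to 60 h and -1.38 ± 0.23 to 120 h, although they span unequal times. All 3 arrays of 340 h were above those of 120 h, by 0.51 ± 0.23, which did not pass (limma adjusted p = 0.0874). That rise passed with the replicate block (limma adjusted p = 0.0468) and on the reference genes (0.84, limma adjusted p = 0.014). Deviations of same-numbered arrays correlated between these times with r of 0.15 to 0.49. The block was fitted on all 15 arrays of 24 h to 340 h, and what the numbers mark is not given. The array of 24 h replicate 3 was the highest of its group, and without it the change at 120 h was -3.73 and at 340 h -3.22.

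LYS12 encodes homoisocitrate dehydrogenase, the mitochondrial step before the amino group is added. It read 10.46, 10.31 and 10.13 at 1 h, 10.74, 10.91 and 10.76 at 12 h and 10.89, 11.14 and 11.04 at 24 h. The later arrays read 9.94, 10.32 and 10.26 at 48 h, 9.43, 9.39 and 9.51 at 60 h, 8.28, 8.39 and 8.45 at 120 h and 7.67, 7.87 and 7.98 at 340 h. No array of a later time overlapped with an earlier one after 24 h. Every step passed, with -0.73 ± 0.15 from 48 h to 60 h, -1.07 ± 0.15 from 60 h to 120 h and -0.54 ± 0.15 from 120 h to 340 h (limma adjusted p = 0.00948). The last of these did not pass when arrays were centred on their medians (-0.42, adjusted p = 0.0522) or on the reference genes (-0.20). By 340 h it was 9.10-fold below 24 h (-3.19 ± 0.15, limma adjusted p = 2.14e-11).

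From 48 h to 60 h LYS9 and LYS12 were the genes of the set that passed, 2 of 9 where 4.60% of all genes fell. LYS20 passed there too (-0.87, adjusted p = 0.0357) without 60 h replicate 3, the array that stood above the other 60 h arrays. From 60 h to 120 h, LYS9, LYS12 and LYS21 fell, 3 of 9 where 4.95% of all genes did. LYS21 (-1.08 ± 0.28) lost its call without 120 h replicate 1 or 2 or without 60 h replicate 1 or 3 (adjusted p = 0.0635 to 0.0863) and on the reference genes (adjusted p = 0.0635).

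LYS2, the aminoadipate reductase, read 7.14, 7.30 and 7.37 at 1 h, 8.34, 8.30 and 8.45 at 12 h and 8.24, 8.57 and 8.58 at 24 h. It then read 7.87, 7.80 and 7.72 at 48 h, 7.42, 7.13 and 7.61 at 60 h, 6.77, 6.99 and 7.22 at 120 h and 6.46, 6.72 and 6.63 at 340 h. Its means fell at every step from 24 h on, and the arrays of 60 h and 120 h overlapped while other neighbours in that series did not. The change reached -1.47 ± 0.17 at 120 h and -1.86 ± 0.17 at 340 h, a 3.63-fold difference (limma adjusted p = 4.30e-08). None of the single steps after 48 h passed (adjusted p = 0.162, 0.164 and 0.0763), except the last without 120 h replicate 1 (adjusted p = 0.0441).

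LYS5, whose product activates Lys2, was higher at 120 h than at 24 h where LYS2 was lower. It read 7.05, 7.17 and 7.12 at 1 h, 8.12, 8.75 and 9.07 at 12 h and 8.66, 8.65 and 8.30 at 24 h. The values were 9.15, 9.10 and 9.05 at 48 h, 9.34, 9.10 and 8.99 at 60 h, 8.99, 9.13 and 9.52 at 120 h and 7.96, 7.87 and 8.31 at 340 h. The plateau from 48 h to 120 h lay above all 24 h arrays, by 0.68 ± 0.18 at 120 h (limma adjusted p = 0.00405), and its arrays overlapped among themselves. From 120 h to 340 h LYS5 fell by 1.16 ± 0.18 on the log2 scale (limma adjusted p = 7.39e-05). Against 24 h the 340 h arrays were lower by a change of -0.49 ± 0.18 (limma adjusted p = 0.0241), but the groups overlapped. This call was lost on array medians (adjusted p = 0.0824), and without 340 h replicate 1 or 2 or 24 h replicate 1 or 2 (adjusted p = 0.0686 to 0.0927). On the reference genes the change turned to 0.27.

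LYS20 and LYS21 encode isozymes of homocitrate synthase, the committed step that lysine inhibits. LYS20 read 11.69, 12.17 and 12.35 at 1 h, 11.90, 11.97 and 11.83 at 12 h and 11.55, 11.71 and 12.28 at 24 h. It read 11.22, 11.29 and 11.36 at 48 h, 10.62, 10.22 and 11.42 at 60 h, 11.18, 10.91 and 10.93 at 120 h and 11.52, 12.07 and 12.00 at 340 h. Its arrays of 1, 12, 24 and 340 h overlapped, and those of 48, 60 and 120 h lay below them.

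LYS21 read 9.63, 9.70 and 9.99 at 1 h, 10.75, 10.84 and 10.98 at 12 h and 10.21, 10.69 and 11.07 at 24 h. Later arrays read 10.48, 10.60 and 10.77 at 48 h, 10.17, 9.89 and 10.25 at 60 h, 8.59, 8.72 and 9.76 at 120 h and 8.65, 9.13 and 9.37 at 340 h. It was thus low at 1 h, high from 12 h to 48 h, and lowest at 120 h and 340 h, which overlapped. The highest 120 h value, 9.76, came from replicate 3, the array of that time with the highest ribosomal RNA control signal. A link was not tested.

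At 340 h against 24 h the change of LYS20 was 0.02 ± 0.26 with an interval from -0.52 to 0.55, and that of LYS21 was -1.61 ± 0.28 (limma adjusted p = 5.61e-05). On the reference genes LYS20 passed upward there (0.77, adjusted p = 0.0201). From 120 h to 340 h LYS20 rose by 0.86 ± 0.26 (limma adjusted p = 0.012), the single rise of the set in that step, where 15.9% of all genes rose and 26.6% fell. In the same step LYS5, LYS12 and LYS14 fell. The 120 h fall of LYS20 (-0.84 ± 0.26 against 24 h) did not pass without 24 h replicate 3 (-0.62, adjusted p = 0.0568).

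The difference between the isozymes was tested on each array as LYS20 minus LYS21, over 10 comparisons. From 24 h to 340 h it grew by 1.63, with SDs of 0.16 at both times, and the 3 arrays of 340 h lay above all 3 of 24 h (two-sided exact permutation p = 0.1, adjusted 0.167). From 1 h to 12 h it changed by -1.25, again without overlap (exact permutation p = 0.1, adjusted 0.167). With 3 arrays against 3 the smallest p is 0.1, so this exact test could not pass. The 6 comparisons at that smallest p also included 48 h against 24 h (-0.51), 120 h against 60 h (1.33), 340 h against 120 h (0.83) and 340 h against 1 h (0.52).

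A further probe set, annotated to both genes and outside the set, gave another view of these transcripts. It averaged 11.49 ± 0.08 at 24 h, 10.28 ± 0.14 at 120 h and 10.56 ± 0.29 at 340 h (mean ± SD, n = 3). At 340 h it was lower than at 24 h (-0.92 ± 0.21, limma adjusted p = 7.13e-04), unlike the probe set of LYS20 alone, and its change from 120 h (0.28 ± 0.21) did not pass. The return of LYS20 at 340 h therefore rests on 1 probe set.

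**Figure D3:**
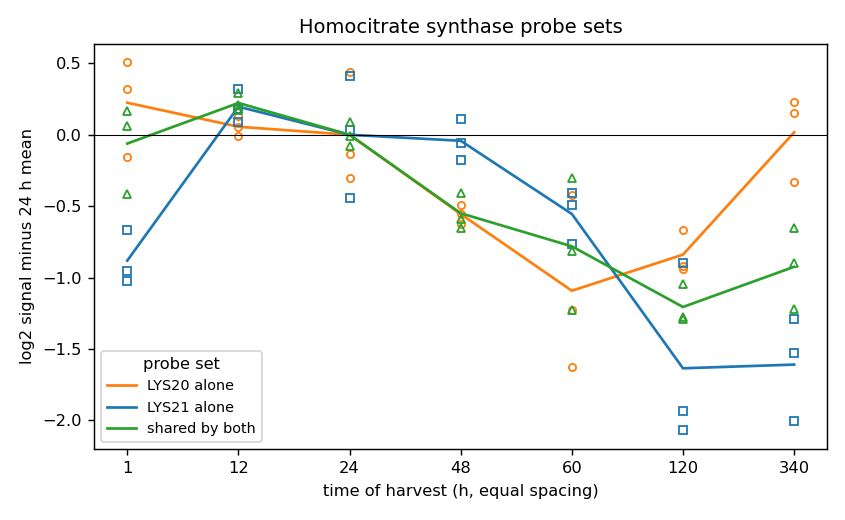
Log2 signal minus the 24 h mean of the same probe set (vertical axis) against time in hours for the probe sets of LYS20 alone, LYS21 alone and both genes, with a symbol per array and lines through means. At 340 h LYS20 is back at 0.02, LYS21 is at -1.61 and the shared probe set lies between them at -0.92.

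LYS4 and LYS1 moved less than LYS9 and LYS12. LYS4, homoaconitase, had its highest mean at 24 h (9.02 ± 0.15), above all arrays of 12 h (8.75 ± 0.17) and of 48 h (8.48 ± 0.12). From 48 h on its means stayed between 8.25 and 8.48. The 60 h arrays lay just below those of 48 h (-0.22 ± 0.15, which did not pass), and later successive harvests overlapped. It fell against 24 h at 60 h (-0.77 ± 0.15) and 120 h (-0.65 ± 0.15), and at 340 h fell by 0.65 ± 0.15, which turned to 0.11 and did not pass on the reference genes. At 340 h against 1 h it changed by 0.24 ± 0.15, which passed only after centring on array medians (0.42) or reference genes (0.83).

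LYS1 encodes the last enzyme, which releases lysine from saccharopine. It averaged 7.80 ± 0.30 at 1 h, 8.80 ± 0.03 at 12 h, and 8.51 ± 0.35 at 24 h (mean ± SD, n = 3). The 48 h mean was 8.72 ± 0.10, and LYS1 then averaged 8.31 ± 0.15 at 60 h, 7.81 ± 0.37 at 120 h and 7.37 ± 0.31 at 340 h. Its changes from 24 h, 0.21 ± 0.21 at 48 h and -0.20 ± 0.21 at 60 h, did not pass. Whether its fall began later than that of LYS9 was not tested. The array of 24 h replicate 3 was the lowest of its group (8.11). With 1 array left out, the 60 h change ran from -0.41 to -0.09 and did not pass. All 60 h arrays lay below those of 48 h (-0.41 ± 0.21), which did not pass either (limma adjusted p = 0.264). At 120 h it was lower (-0.70 ± 0.21, limma adjusted p = 0.0103), though not without 120 h replicate 1 (adjusted p = 0.0707) or 24 h replicate 2 (adjusted p = 0.0533). At 340 h it was 2.21-fold lower (-1.15 ± 0.21), but -0.39 with adjusted p = 0.134 on the reference genes. From 120 h to 340 h it passed only without 120 h replicate 1 (-0.66, adjusted p = 0.0251), and at 340 h against 1 h only without 340 h replicate 2 (-0.56) or without 1 h replicate 1 (-0.60).

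LYS14, the pathway activator, had time means between 3.99 and 4.88, and times ranked by mean overlapped with the next in rank. In order of harvest, the 12 h arrays lay wholly below those of 1 h. Those of 340 h likewise lay wholly below those of 120 h, and the other successive harvests overlapped. At 120 h, when the 7 enzymes of the pathway steps were below 24 h, the change of LYS14 was 0.18 ± 0.19 with a 95% interval from -0.22 to 0.58 (limma adjusted p = 0.44). Its fall from 120 h to 340 h (-0.50 ± 0.19, limma adjusted p = 0.0434) was lost without 340 h replicate 2 or 120 h replicate 1 or 3 (adjusted p = 0.0781 to 0.198), and on array medians or reference genes. These signals are low on the scale of the table, and the file holds no detection calls.

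Across the 21 arrays, which share their times and are not independent, the profiles of LYS2, LYS9, LYS12 and LYS21 were most alike, with Pearson r of 0.85 to 0.93 between pairs. LYS1 correlated with LYS21 (0.85) and LYS2 (0.85). LYS20 had an r of 0.21 with its isozyme LYS21 and of -0.70 with LYS5. LYS14 lay between -0.30 and 0.35 with every other gene of the set. These values are descriptions with no test.

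**Figure D4:**
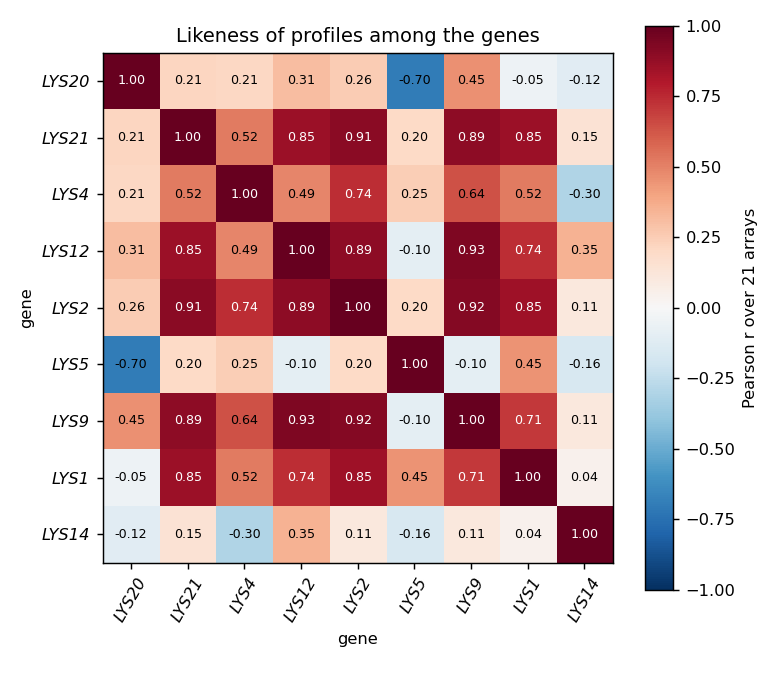
Pearson r over 21 arrays between the log2 signals of each pair of the 9 genes (colour and printed value; both axes list the genes). The block of LYS2, LYS9, LYS12 and LYS21 is at 0.85 or above, and the rows of LYS20, LYS5 and LYS14 are paler or negative.

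The mean of the standardised values of the 7 enzymes was used to find genes of like course. Outside the set, the highest r over 21 arrays belonged to VMA5 (0.96), a subunit of the vacuolar proton pump, PHS1 (0.96) of very long chain fatty acid synthesis, and TUB4 (0.94), gamma-tubulin. They were followed by HIS1 (0.93), the first enzyme of histidine synthesis, ODC2 (0.93), a mitochondrial carrier of 2-oxoadipate and 2-oxoglutarate, and TEM1 (0.93), a GTPase of mitotic exit. Over all genes the median r was 0.03, and 35 genes exceeded 0.9, among them LYS2, LYS9, LYS12 and LYS21. The other enzymes followed this mean less closely, with r of 0.81 for LYS1, 0.72 for LYS4 and 0.42 for LYS20. The values of all 7 enzymes enter the mean itself.

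Other genes that touch lysine showed both directions. The list held 15 genes with a probe set of their own. At 340 h against 24 h, 5 of the 15 fell and 8 rose, with a median change of 0.54, where 36.0% of all genes fell and 27.8% rose. At 120 h against 24 h, 4 of them fell and 8 rose (26.6% of all genes each way), and their median change was 0.62. With arrays centred on the reference genes, these counts were 4 and 10 of 15 at 340 h and 3 and 10 at 120 h. In that setting the all-gene median was 0.63 at 340 h and 0.43 at 120 h. Of all genes called there, 78.9% and 77.1% were higher.

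The 5 falls at 340 h were all of at least 1 log2 unit. ARO8, an aminotransferase that can supply 2-aminoadipate, fell by 2.46 ± 0.19 at 340 h, from 10.39 to 7.94. KRS1, the cytosolic lysyl-tRNA synthetase, fell by 2.43 ± 0.22 and ODC2 fell by 2.05 ± 0.25. The vacuolar carriers YPQ1 (-1.67 ± 0.16) and VBA1 (-1.15 ± 0.18) were also lower. VBA1 did not pass on the reference genes (-0.39), and the other 4 did. Genes with related products went the other way, ARO9 beside ARO8 (0.54 ± 0.16) and ODC1 beside ODC2 (0.97 ± 0.22), which rose by less than 1 and were named after their values were seen.

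Rises of at least 1 log2 unit included a regulator, permeases, a vacuolar carrier and a mitochondrial synthetase. MKS1, also known as LYS80 and a negative regulator of lysine synthesis genes, rose by 3.12 ± 0.19 at 340 h (limma adjusted p = 3.34e-10), from 5.86 to 8.98, after 0.69 ± 0.19 at 120 h. GAP1, the general amino acid permease, rose by 3.81 ± 0.31 at 120 h and 2.85 ± 0.31 at 340 h. The basic amino acid permeases ALP1 (3.62 ± 0.22) and CAN1 (1.71 ± 0.24) and the vacuolar carrier VBA2 (2.13 ± 0.16) were higher at 120 h. At 340 h CAN1 (1.32 ± 0.24) and VBA2 (2.05 ± 0.16) were still higher, while ALP1 fell from 120 h (-2.91 ± 0.22) and was 0.71 ± 0.22 above 24 h. MSK1, the mitochondrial lysyl-tRNA synthetase, was higher at both times (1.46 ± 0.19 and 2.19 ± 0.19). The lysine permease LYP1 (0.31 ± 0.20 at 120 h, 0.20 ± 0.20 at 340 h) and GCN4, the activator of amino acid synthesis (0.32 ± 0.20 and 0.02 ± 0.20), did not pass, but both were higher on the reference genes (LYP1 0.74 and 0.95, GCN4 0.74 and 0.77).

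The list for the supply of 2-oxoglutarate, the entry substrate, held 13 genes. Among them were the regulators RTG1, RTG2 and RTG3, which are not enzymes of that supply. At 12 h against 1 h, 9 rose and 1 fell (median 1.51), where 26.0% of all genes rose. At 340 h against 24 h, 6 rose and 4 fell (median -0.01), with 27.8% of all genes higher and 36.0% lower. On the reference genes 8 rose and 0 fell in limma, with a median of 0.74 where that of all genes was 0.63. At 120 h, 2 rose and 1 fell (median 0.15, with 26.6% of all genes in each direction). On the reference genes 8 rose and 1 fell at 120 h, with a median of 0.57 where that of all genes was 0.43. The rises in that setting included RTG1, RTG2 and RTG3 at both 120 h and 340 h. Without that centring, the largest changes at 120 h were those of IDP2 (1.91 ± 0.20), the cytosolic isocitrate dehydrogenase, and DLD3 (-1.10 ± 0.20), a lactate dehydrogenase. The largest rise at 340 h was that of IDH2 (1.53 ± 0.21), a subunit of the mitochondrial isocitrate dehydrogenase, and the largest fall that of ACO1 (-1.19 ± 0.23), the aconitase, which did not pass on the reference genes (-0.43).

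Arginine, branched-chain and histidine synthesis were set beside the lysine genes as other routes of amino acid synthesis. At 12 h against 1 h, 6 of 8 arginine genes, 6 of 11 branched-chain genes and 6 of 7 histidine genes rose, with medians of 1.01, 0.62 and 0.98, beside 1.00 for lysine and 26.0% of all genes higher. At 340 h against 24 h, 2 of 8, 6 of 11 and 5 of 7 fell, with medians of -0.16, -0.49 and -1.12, beside -1.15 for lysine and 36.0% of all genes lower. On the reference genes 1, 4 and 3 fell and 4, 4 and 2 rose. The medians were 0.60, 0.27 and -0.36, where that of all genes was 0.63. For lysine, 4 of 9 fell and 1 rose in that setting, with a median of -0.39. At 120 h against 24 h, 2, 5 and 4 fell and 2, 0 and 1 rose, with medians of -0.06, -0.40 and -0.59, beside -0.84 for lysine and 26.6% of all genes in each direction. On the reference genes 1, 1 and 2 fell and 3, 3 and 1 rose, beside 4 falls and 2 rises for lysine. The medians were 0.36, 0.03 and -0.16, beside -0.41 for lysine and 0.43 for all genes. Before that centring, branched-chain LEU9 fell by 1.08 ± 0.25 and HIS2 rose by 0.64 ± 0.15 at 120 h. On the reference genes these changes were -0.65 and 1.07. Without that centring, rises were found at 340 h in arginine (2, led by CPA1 at 1.37 ± 0.15) and histidine (1, HIS4 at 0.80 ± 0.17). The largest falls were ARG1 (-1.69 ± 0.30), BAT1 (-2.17 ± 0.22) and HIS1 (-2.48 ± 0.22), each smaller in size than those of LYS9 and LYS12. No test compared the lists with each other.

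**Figure D5:**
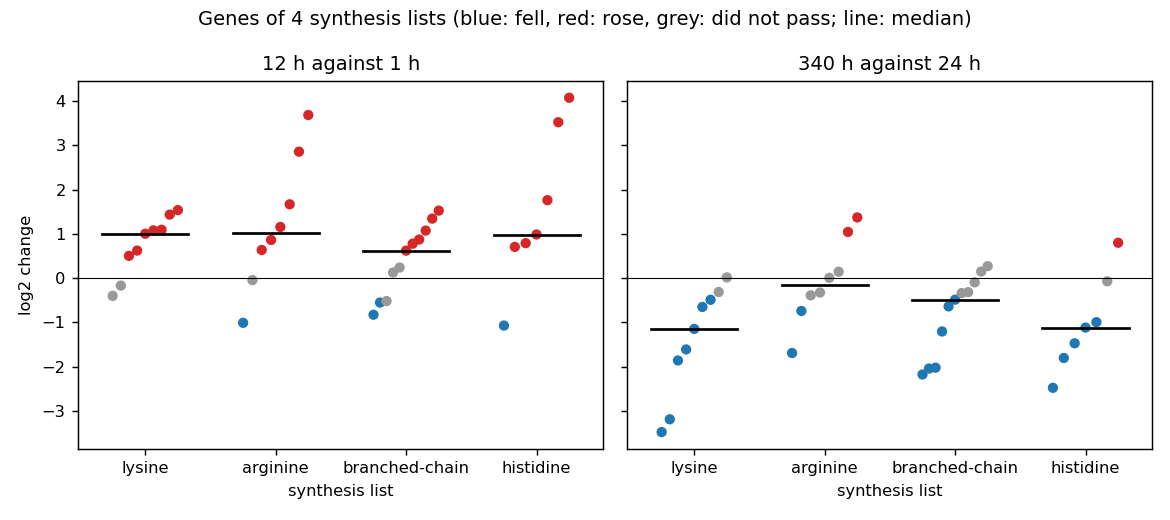
Log2 change (vertical axis) of each gene of the lysine, arginine, branched-chain and histidine lists (horizontal axis) at 12 h against 1 h and at 340 h against 24 h, with a line at the median. Blue genes fell, red rose and grey did not pass; the lysine median is 1.00 on the left and -1.15 on the right.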

How the data were processed

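RNA of 21 samples was measured on one-colour Affymetrix arrays, 3 per time. The submitters' processing notes name RMA and affy as the tools of the authors, and the deposited table holds log2 values, 1 for each probe set and array. Versions, parameters and the arrays normalized together are not given in the sources used here. RMA gives arrays one distribution, so a change in total mRNA cannot be seen.

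Of 9335 probe sets, 60 controls, 2443 with no gene in the platform annotation and 328 with several were left out. For each gene the probe set with the highest mean was kept, and symbols were updated through RefSeq (R64). With limma 3.58.1 (R 4.3.3), group means were estimated on 15 arrays for 24 h to 340 h and on all 21 where 1 h or 12 h entered. Tests were two-sided. The fit was run on simulated data with independent normal noise and no array effects. Such data cannot show dependence on scaling or on single arrays.

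The alternatives were another set of arrays in the fit, the replicate number as a block, centring on array medians or on 5 reference genes (ALG9, TAF10, TFC1, UBC6 and TRS65), a filter on the dimmest 25% of genes, limma's trend and robust options, the dimmest probe set of a gene, and leaving out each array. Each of the 9 genes had 1 probe set, so taking the dimmest probe set could not change their values. The shared homocitrate synthase probe set was added after seeing the data. The members and lists were chosen with earlier results of these data known. All 9 members were named. Of the other lists, the text names the largest rise and fall and, for lysine-related genes, those that passed at 120 h or 340 h against 24 h with a change of at least 1, plus LYP1, GCN4, ARO9 and ODC1, named after their values were seen. The 6 most alike genes were named.

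Same-numbered arrays deviated together (every pair's r over 0.1) in only 2 comparisons, 60 h to 120 h, with r from 0.16, and 120 h to 340 h, with r from 0.15. The labels do not say what the numbers mark.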

Additional observations from a re-analysis of the deposited data

How the results depend on the processing

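Of 48 calls of a rise or fall over the 9 genes and 10 comparisons, 39 passed with each array of the groups compared left out in turn, and the other 9 lost the call at least once. Leaving out 1 array, the number of genes that passed ranged from 3 to 5 (5 with all arrays) for 48 h against 24 h, from 5 to 7 (6) for 60 h, 7 to 8 (8) for 120 h and 6 to 7 (7) for 340 h against 24 h. It ranged from 2 to 3 (2) for 60 h against 48 h, 2 to 3 (3) for 120 h against 60 h, 3 to 5 (4) for 340 h against 120 h, 7 to 8 (7) for 12 h against 1 h and 5 to 7 (6) for 340 h against 1 h, and stayed at 0 for 24 h against 12 h and at 9 for any change over time. Other settings kept these counts within 1.5 times, except that 3 genes passed at 48 h against 24 h on the reference genes and 2 passed at 340 h against 120 h on array medians. The cause was not tested. The replicate block changed 2 calls, LYS21 at 60 h against 24 h (-0.55, adjusted p = 0.0299) and LYS9 at 340 h against 120 h (0.51, adjusted p = 0.0468), and no other. It moved no count of genes of the set by over 1.5 times.

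With the reference genes as the centre, the all-gene median moved by 0.18 (48 h), 0.23 (60 h), 0.43 (120 h) and 0.76 (340 h) against 24 h. The shift was 0.19 from 60 h to 120 h, 0.33 from 120 h to 340 h, -0.18 from 1 h to 12 h and 0.58 from 1 h to 340 h. The share of called genes that were higher went from 60.3% to 81.5%, 52.1% to 73.2%, 50% to 77.1% and 43.5% to 78.9% for the 4 comparisons with 24 h. For the other steps it went from 43.1% to 56.9% (60 h against 48 h), 48.1% to 79.2%, 37.4% to 70.6%, 43.4% to 32.8% (12 h against 1 h) and 45.8% to 68.7% (340 h against 1 h). For 24 h against 12 h it went from 38.5% to 46.2%, with 39 genes called in place of 117, and the replicate block called 185. Array medians shifted the median by 0.12 from 24 h or 120 h to 340 h, 0.10 from 1 h to 12 h and 0.18 from 1 h to 340 h, and moved the share from 37.4% to 48.4% for 340 h against 120 h. The falls of LYS9 and LYS12 at 48, 60, 120 and 340 h against 24 h passed under both centrings. On the reference genes LYS4 (0.11) and LYS5 (0.27) turned sign at 340 h against 24 h and did not pass. At 340 h against 24 h the probe set shared by both isozymes changed by -0.92, where that of LYS20 alone changed by 0.02. The shared probe set also reads LYS21, whose own probe set changed by -1.61, so it is not a second value of LYS20. With only its 6 arrays in the limma fit, 24 h against 12 h called 0 of 5656 genes, and 780 had an unadjusted p under 0.05. The number of arrays limits the precision of all values.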
